A study of Homo sapiens with 6 samples.

Results

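The genes described here encode the machinery that moves newly made proteins into the endoplasmic reticulum (ER) and carries them between the ER and the Golgi apparatus. The list of 47 genes was matched by symbol to the 60658 Ensembl identifiers of the deposited tables, and each gene was found at exactly 1 identifier. The members fall into 6 groups, with 9 genes of the translocon and its associated TRAP complex, 5 of the signal peptidase, 8 of the signal recognition particle (SRP) and its receptor, 11 of the COPII coat, 6 of the COPI coat and 8 cargo receptors. RNA was sequenced from C4-2B MDVR and CWR22Rv1, which are 2 prostate cancer lines, after 48 h with the vehicle DMSO, with 10 µM apoptozole (APO) or with 10 µM VER155008 (VER). Both compounds are small molecules that block the ATPase of the chaperone HSP70. The paper describes both lines as resistant to enzalutamide and abiraterone. C4-2B MDVR was derived from C4-2B and was maintained with 20 µM enzalutamide, whereas CWR22Rv1 was maintained without it. Whether the drug was also present during the 48 h is not given in the sources used here. The titles of the libraries name C4-2B MDVR, although other labels describe the source as LNCaP-C4-2B and every line as parental. Each of the 6 conditions has 1 library, so the differences below have no replicate check, and p-values are not given.

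Secretory and membrane proteins are recognised by SRP as their signal sequence leaves the ribosome, are brought to the SRP receptor on the ER and pass through the SEC61 channel, where the signal peptidase removes the signal sequence. Folded cargo leaves the ER in vesicles coated with COPII, which the GTPase SAR1 starts and which the SEC23, SEC24, SEC13 and SEC31 subunits build. COPI vesicles return escaped ER proteins and the cargo receptors that carried them. Many of these genes belong to the set that secretory cells raise together when the load of proteins in the ER grows, and prostate luminal cells are secretory.

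Values are FPKM, fragments scaled by transcript length and library size, and log2 fold changes are differences of log2(FPKM + 0.1) between 2 libraries. A gene is called higher or lower here when it differed by more than 1.2-fold, the threshold the study itself used, and only genes that exceeded 0.1 FPKM somewhere in the 3 libraries of a line were compared. All 47 members passed that filter in both lines, and their lowest value in any library was 5.38 FPKM. The 8 luminal prostate markers examined were expressed in every library, with summed levels of 902 to 1499 FPKM. Of 7 markers of leukocytes, endothelium, fibroblasts and basal cells, COL1A1 alone exceeded 1 FPKM, at 3.32 to 10.8 FPKM, and PECAM1, KRT5 and TP63 were listed at 0 throughout. Relative to the DMSO library of C4-2B MDVR, the depth read from low values lay between 1.15 and 1.67 in the other libraries. Each depth is the most frequent ratio among 167 to 347 low values, with 4.03% to 8.38% of them in that bin, so it is a rough estimate. Mitochondrial genes held 14.8% to 16.4% of all FPKM in the C4-2B MDVR libraries, and 25.7%, 10.4% and 25.7% in CWR22Rv1 with DMSO, APO and VER. The APO library of CWR22Rv1 thus stands apart, and its values below are read with this difference beside them. In bulk RNA, a higher level in every cell cannot be told apart from a larger share of cells that express the gene.

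Most members were higher with either inhibitor in C4-2B MDVR. With APO, 34 of the 47 members were higher and 2 lower, where 37.7% of the 20122 genes compared were higher and 35.4% lower. With VER, 37 members were higher and 2 lower, against 35.6% and 34.9% of all genes. In CWR22Rv1 cells VER gave 29 higher and 1 lower member, where 32.1% of 21608 genes were higher and 32.3% lower. APO gave the least one-sided result in CWR22Rv1 cells, with 22 members higher and 9 lower, against 35.6% and 39.2% of all genes. With every library brought to an equal total (TPM), that split became 27 higher and 6 lower, and with mitochondrial genes left out of the total it was 19 and 9. In C4-2B MDVR the median log2 fold change of the 47 members was 0.50 with APO and 0.54 with VER, whereas CWR22Rv1 had medians of 0.21 and 0.35. With APO in CWR22Rv1 cells the median was 0.32 with TPM and 0.06 with mitochondrial genes left out of the total. Over all genes compared the 4 medians lay between -0.01 and 0. In the C4-2B MDVR line 20 members were higher past 1.5-fold with APO and 21 with VER, against 25.2% and 23.7% of all genes, and none was lower, against 23.1% and 22.4%. In CWR22Rv1 cells 10 were higher and 2 lower with APO, against 23.8% and 27.5%, and 12 and 0 with VER, against 19.1% and 17.5%. Past 2-fold 5, 4, 4 and 1 members were higher in the 4 comparisons in that order, against 15.4%, 14.4%, 13.8% and 10.8% of all genes, so that higher members were a smaller share of the list than of all genes in each. No member was lower past 2-fold, against 13.3%, 13.3%, 16.8% and 8.92% of all genes. The genes compared had to exceed only 0.1 FPKM in 1 library of the line, whereas no member was below 5.38 FPKM. Shares over genes of like level were not computed.

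**Figure D1:**
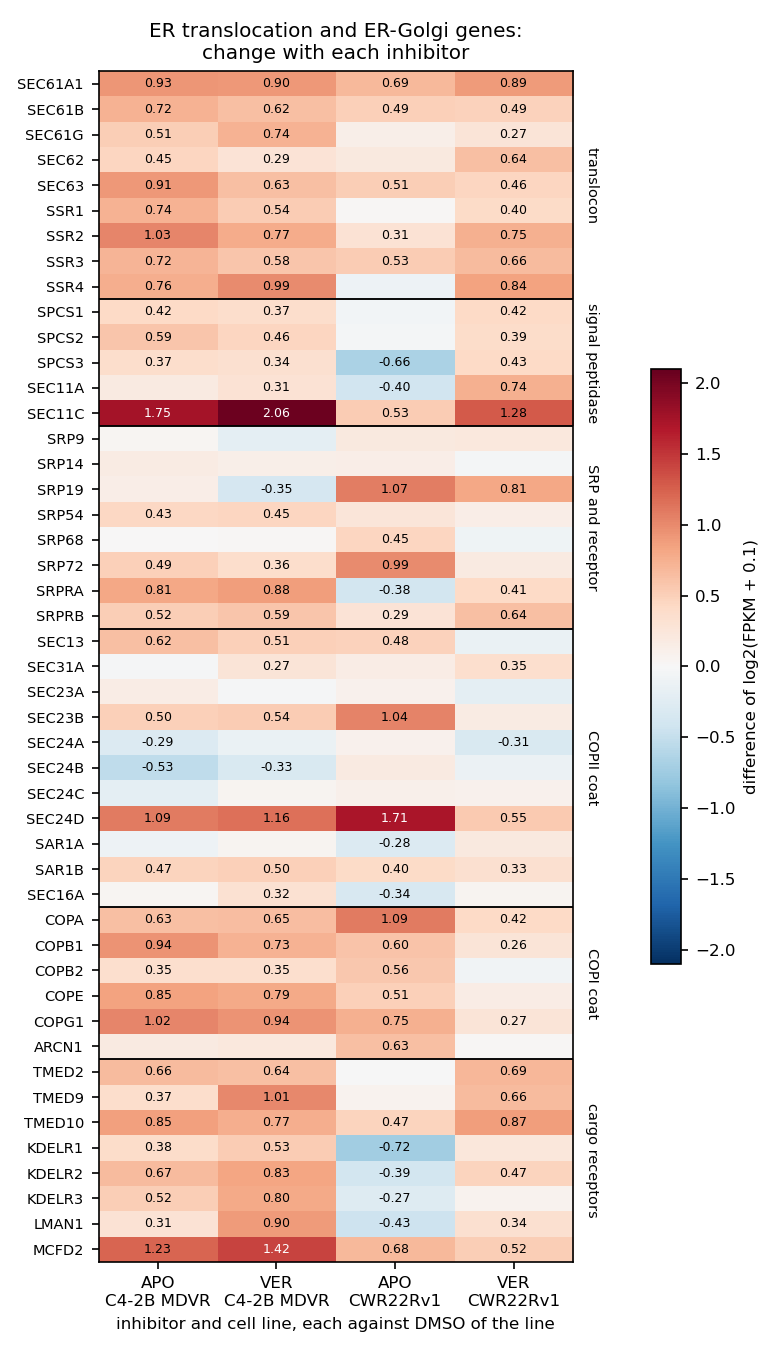
Log2 fold change of the 47 members (rows, by group) in the 4 comparisons of an inhibitor with DMSO of the same line (columns). Colour gives the difference of log2(FPKM + 0.1), red for higher and blue for lower, and the value is written where it exceeds 1.2-fold. The column of APO in CWR22Rv1 holds 9 of the 14 values written in blue.

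The 47 members together held 0.800% of all FPKM in C4-2B MDVR under DMSO, 1.12% under APO and 1.24% under VER. In CWR22Rv1 cells they held 0.740%, 0.883% and 1.01%. Of the FPKM outside the mitochondrial chromosome they held 0.946%, 1.31% and 1.48% in C4-2B MDVR and 0.997%, 0.986% and 1.35% in CWR22Rv1 cells, in the same order. On either total the share was thus larger with APO and VER than with DMSO in C4-2B MDVR and with VER in CWR22Rv1 cells, while with APO in CWR22Rv1 cells it lay above DMSO over all FPKM and slightly below DMSO outside the mitochondrial chromosome. Higher in all 4 comparisons were 14 members, or 29.8% of the list, while 9.59% of the 18059 genes that passed the filter in both lines were higher in all 4. These 14 genes were SEC61A1, SEC61B, SEC63, SSR2 and SSR3 of the translocon, SEC11C of the signal peptidase, SRPRB of the SRP receptor, SEC24D and SAR1B of COPII, COPA, COPB1 and COPG1 of COPI, and the cargo receptors TMED10 and MCFD2. The count of 14 was not recomputed under the rescalings. With mitochondrial genes left out of the total, SSR2 with APO in CWR22Rv1 cells was at 0.15 on the log2 scale. COPG1 with VER in that line was at 0.20, so neither gene then exceeded 1.2-fold in all 4 comparisons. Before rescaling, SRPRB with APO and COPB1 with VER in that line, at 0.29 and 0.26, lay below SSR2 and COPG1 in the same comparisons. A rescaling shifts all genes of a comparison alike, apart from the pseudocount, so more genes than SSR2 and COPG1 drop out of the 14. The rest of the 14 were not examined in this way. A further 17 members were higher in 3 comparisons. The 2 comparisons within a line share a DMSO library, so the 4 comparisons are not independent of each other. Another 4 members, SRP9, SRP14, SEC23A and SEC24C, stayed within 1.2-fold of DMSO in all 4 comparisons, and 12 members were lower in at least 1. For the counts of 17, 4 and 12 members the share over all genes was not computed, so they are given as a description.

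**Figure D2:**
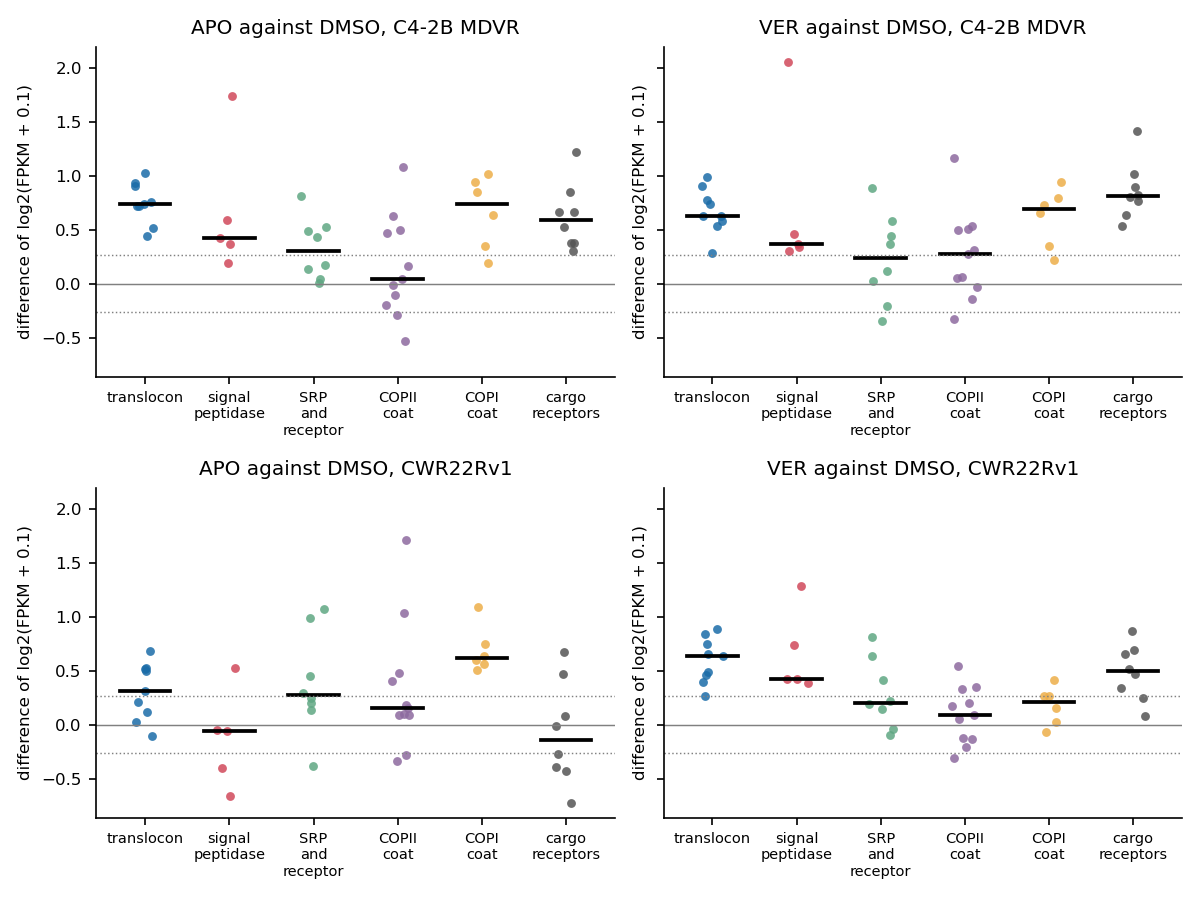
Log2 fold changes of the members (points) in each of the 6 groups, with 1 panel for each inhibitor and line and a black bar at the group median. Dotted lines mark 1.2-fold on the scale of log2(FPKM + 0.1). The translocon medians lie at 0.74, 0.63, 0.31 and 0.64, and the COPII medians at 0.04, 0.27, 0.15 and 0.09.

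Translocon genes were higher in nearly every comparison. All 9 genes were higher with APO in C4-2B MDVR and with VER in both lines, and 5 of 9 were higher with APO in CWR22Rv1, with none lower. The shares over all genes given above for each comparison also stand beside the counts of this and the following groups. With VER in CWR22Rv1 cells SEC61G was only just past the threshold, at 0.27 on the log2 scale. SEC61A1 (ENSG00000058262, chromosome 3 from 128051641 to 128071683 on GRCh38), which encodes the pore-forming subunit of the channel, had 354 FPKM under DMSO, 676 under APO and 663 under VER in C4-2B MDVR. In CWR22Rv1 cells SEC61A1 had 152, 244 and 280.4 FPKM. Both treated libraries thus lay above DMSO in each line, with log2 fold changes of 0.93 and 0.90 in C4-2B MDVR and 0.69 and 0.89 in CWR22Rv1. SSR2 (ENSG00000163479, chromosome 1 from 156009048 to 156020959), a subunit of the TRAP complex that sits beside the channel, was the most abundant member in all 6 libraries. It had 414, 844 and 707 FPKM in C4-2B MDVR with DMSO, APO and VER, and 427, 529 and 718 FPKM in CWR22Rv1 cells. The order of the inhibitors differed between the lines, with APO highest in C4-2B MDVR and VER highest in CWR22Rv1. SEC62, which serves translocation after translation is complete and also acts as a receptor for ER-phagy, differed least on average in this group. Its level was 46.8, 63.7 and 57.1 FPKM in C4-2B MDVR and 39.4, 45.5 and 61.3 FPKM in CWR22Rv1. SSR1, SSR4, SEC61G and SEC62 were the members of the group within 1.2-fold of DMSO in CWR22Rv1 cells with APO. The group median there was 0.31 on the log2 scale, and 0.15 when the library totals were matched outside the mitochondrial chromosome.

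The signal peptidase held the largest single change of the list. SEC11C (ENSG00000166562, chromosome 18 from 59139477 to 59158836), one of 2 alternative catalytic subunits, had 49.4 FPKM under DMSO, 166 under APO and 206 under VER in C4-2B MDVR. In CWR22Rv1 cells it had 90.8, 131 and 221 FPKM. VER gave the highest level in each line, and the log2 fold changes were 1.75 and 2.06 in C4-2B MDVR and 0.53 and 1.28 in CWR22Rv1. SPCS3 (ENSG00000129128, chromosome 4 from 176319964 to 176332245), a noncatalytic subunit that the enzyme requires, went in opposite directions with APO in the lines. Its level was 36.0, 46.6 and 45.7 FPKM in C4-2B MDVR with DMSO, APO and VER, and 134, 84.6 and 179.6 FPKM in CWR22Rv1 cells. SPCS1, an accessory subunit with the smallest mean change of the group, had 268, 359.7 and 346 FPKM in C4-2B MDVR and 274, 262 and 367 FPKM in CWR22Rv1. With VER all 5 subunits were higher in both lines. With APO 4 of 5 were higher in C4-2B MDVR, whereas in CWR22Rv1 cells SEC11C was higher, SEC11A and SPCS3 were lower and SPCS1 and SPCS2 stayed within 1.2-fold.

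Of the 8 genes of SRP and its receptor, no more than 4 were higher in any comparison, and in C4-2B MDVR the 2 receptor subunits had the largest increases of the group. SRPRA (ENSG00000182934, chromosome 11 from 126262919 to 126269144), the GTPase of the receptor, had 36.5 FPKM under DMSO, 64.1 under APO and 67.4 under VER in C4-2B MDVR. In CWR22Rv1 cells it had 109, 83.3 and 145 FPKM, so that its APO library lay below DMSO there and its VER library above. SRPRB, the membrane anchor of the receptor, was higher in all 4 comparisons, with log2 fold changes of 0.52, 0.59, 0.29 and 0.64. SRP19 (ENSG00000153037, chromosome 5 from 112861188 to 112898371), which helps the particle to assemble on its RNA, had 46.6, 51.2 and 36.5 FPKM in C4-2B MDVR and 24.9, 52.6 and 43.9 FPKM in CWR22Rv1. It was higher with both inhibitors in CWR22Rv1 cells and lower with VER in C4-2B MDVR. The annotation of SRP19 overlaps that of REEP5, and the sources used here do not state whether strand was used in counting. This limit is not particular to SRP19. A coding gene overlaps 19 of the 47 members, SEC61A1, SRPRA, SRPRB, COPA and MCFD2 among them, and 33 members are overlapped on the opposite strand. SRP14, a subunit of the domain that pauses translation, differed least on average, with 143, 161 and 155 FPKM in C4-2B MDVR and 166, 182 and 160.5 FPKM in CWR22Rv1. Over the 8 genes, 4, 4, 4 and 3 were higher in C4-2B MDVR with APO, in that line with VER, and in CWR22Rv1 with APO and VER, and 0, 1, 1 and 0 were lower. The higher genes were 50%, 50%, 50% and 37.5% of the group, against 37.7%, 35.6%, 35.6% and 32.1% of all genes. The group medians of 0.30, 0.24, 0.27 and 0.21 on the log2 scale lay close to 1.2-fold, which is 0.26. With the totals matched outside the mitochondrial chromosome the APO medians were 0.14 in C4-2B MDVR and 0.12 in CWR22Rv1.

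COPII was the group with the lowest medians in C4-2B MDVR with APO and in CWR22Rv1 cells with VER, and its members moved apart. SEC24D (ENSG00000150961, chromosome 4 from 118722823 to 118838683), one of 4 paralogs that select cargo for the coat, had 10.1 FPKM under DMSO, 21.5 under APO and 22.7 under VER in C4-2B MDVR. In CWR22Rv1 cells it had 5.38, 17.9 and 7.91 FPKM. Its log2 fold changes of 1.09, 1.16, 1.71 and 0.55 were all above 1.2-fold, and the value with APO in CWR22Rv1 cells exceeded that of every other member in that comparison. SEC23B (ENSG00000101310, chromosome 20 from 18507482 to 18561415), which activates the GTPase of SAR1, had 52.6, 74.4 and 76.5 FPKM in C4-2B MDVR and 35.3, 72.4 and 39.8 FPKM in CWR22Rv1. Both inhibitors thus gave similar levels in C4-2B MDVR, and APO alone exceeded 1.2-fold in CWR22Rv1 cells. SEC24C, the most abundant of the SEC24 paralogs, had 37.0, 32.2 and 38.7 FPKM in C4-2B MDVR and 32.5, 34.9 and 34.5 FPKM in CWR22Rv1, within 1.2-fold of DMSO throughout. With TPM its log2 fold change with APO in C4-2B MDVR was -0.35. SEC24A and SEC24B were lower in 2 comparisons each and higher in none. Of the 11 genes, 4, 6, 4 and 3 were higher and 2, 1, 2 and 1 lower, in the order of comparisons used above. The higher genes were 36.4%, 54.5%, 36.4% and 27.3% of the group, against 37.7%, 35.6%, 35.6% and 32.1% of all genes. Apart from VER in C4-2B MDVR these shares were thus near or below those of all genes. The lower genes were 18.2%, 9.09%, 18.2% and 9.09%, against 35.4%, 34.9%, 39.2% and 32.3%. In C4-2B MDVR with APO the COPII median was 0.69 below that of the translocon, and in CWR22Rv1 cells with VER it was 0.55 below, on the log2 scale. These gaps lie within single pairs of libraries, in which any scaling of a library cancels apart from the pseudocount.

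Most COPI genes were higher with APO in both lines and with VER in C4-2B MDVR, and fewer with VER in CWR22Rv1 cells. COPG1 (ENSG00000181789, chromosome 3 from 129249606 to 129277773), the gamma subunit, had 106 FPKM under DMSO, 214 under APO and 204 under VER in C4-2B MDVR. In CWR22Rv1 cells it had 48.6, 81.5 and 58.6 FPKM. COPA (ENSG00000122218, chromosome 1 from 160288686 to 160343400), the alpha subunit, had 53.4, 82.9 and 84.0 FPKM in C4-2B MDVR and 41.8, 88.8 and 55.8 FPKM in CWR22Rv1. For both genes the levels with APO and VER were close in C4-2B MDVR, while in CWR22Rv1 cells the VER library lay between DMSO and APO. ARCN1, the delta subunit, had the smallest changes, with 78.5, 89.5 and 91.6 FPKM in C4-2B MDVR and 62.7, 97.4 and 64.0 FPKM in CWR22Rv1. Higher were 5 of 6 subunits with each inhibitor in C4-2B MDVR, all 6 with APO in CWR22Rv1 cells and 3 with VER, and none was lower. Among the latter, COPB1 and COPG1 were just past the threshold, with log2 fold changes of 0.26 and 0.27, and COPG1 fell short of it with TPM, at 0.20. COPB1 started below COPG1 in that comparison, so it falls short with TPM as well. COPB2 was at -0.07 there. The group medians were 0.74, 0.69, 0.62 and 0.21 on the log2 scale.

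With APO, the cargo receptors had the widest gap between the medians of the lines. MCFD2 (ENSG00000180398, chromosome 2 from 46901870 to 46941855), the calcium-binding partner of the lectin LMAN1, had 30.2 FPKM under DMSO, 70.7 under APO and 80.8 under VER in C4-2B MDVR. In CWR22Rv1 cells it had 20.3, 32.5 and 29.05 FPKM, so both inhibitors lay above DMSO in each line. TMED10 (ENSG00000170348, chromosome 14 from 75131470 to 75176631), of the p24 family of cargo receptors, had 280.3, 507 and 477 FPKM in C4-2B MDVR and 129, 178 and 235 FPKM in CWR22Rv1. The KDEL receptors, which return chaperones that have escaped to the Golgi, exceeded 1.2-fold above DMSO with each inhibitor in C4-2B MDVR, and all 3 were lower with APO in CWR22Rv1 cells. KDELR3, with the smallest mean change of the group, had 16.6, 23.9 and 29.02 FPKM in C4-2B MDVR and 7.18, 5.94 and 7.58 FPKM in CWR22Rv1. Its decrease of 0.27 on the log2 scale with APO in CWR22Rv1 cells was 0.16 with TPM, short of the threshold. Across the group all 8 genes were higher with each inhibitor in C4-2B MDVR, with medians of 0.59 and 0.81. In CWR22Rv1 cells 6 of 8 were higher with VER, with a median of 0.49. With APO 2 were higher and 4 lower in that line, with a median of -0.14, which was -0.30 with the totals matched outside the mitochondrial chromosome. The COPI median exceeded that of the cargo receptors by 0.76 in the same comparison.

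Within families of paralogs, the share of a paralog in the summed FPKM of its family does not depend on how a library was scaled. In C4-2B MDVR, SEC11C held 40.5% of the SEC11 sum under DMSO, 66.7% under APO and 69.6% under VER, and 24.7%, 38.4% and 32.3% in CWR22Rv1 cells. The paralog that was the minor of the pair in both DMSO libraries thus became the major one in treated C4-2B MDVR and stayed the minor one in CWR22Rv1 cells. SEC24D held 13.2%, 28.3% and 26.2% of the SEC24 sum in C4-2B MDVR and 8.59%, 22.3% and 12.4% in CWR22Rv1 cells. Its summed family hardly differed in C4-2B MDVR with APO, at 76.6 FPKM with DMSO and 76.1 FPKM with APO, since the levels of SEC24A, SEC24B and SEC24C were each below those with DMSO. SEC23B held 58.9%, 64.4% and 68.0% of the SEC23 sum, and 59.6%, 74.0% and 65.9% in CWR22Rv1 cells. SAR1B held 49.9%, 59.7% and 57.6% of the SAR1 sum, and 37.3%, 48.9% and 39.4% in CWR22Rv1 cells. In these families the same paralog had the larger share in each treated library than in DMSO of its line. Among the KDEL receptors KDELR2 did likewise, with 50.2%, 54.8% and 54.6% of the sum in C4-2B MDVR and 45.4%, 50.9% and 49.4% in CWR22Rv1. KDELR3 was a small part of that sum, at 6.12%, 6.06% and 6.57% in C4-2B MDVR and at 1.28%, 1.56% and 1.06% in CWR22Rv1 cells. SAR1B and SEC24A overlap in the annotation of chromosome 5, on opposite strands. Pseudogenes named for 13 members, SEC24A and SAR1A among them, could share their reads.

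**Figure D3:**
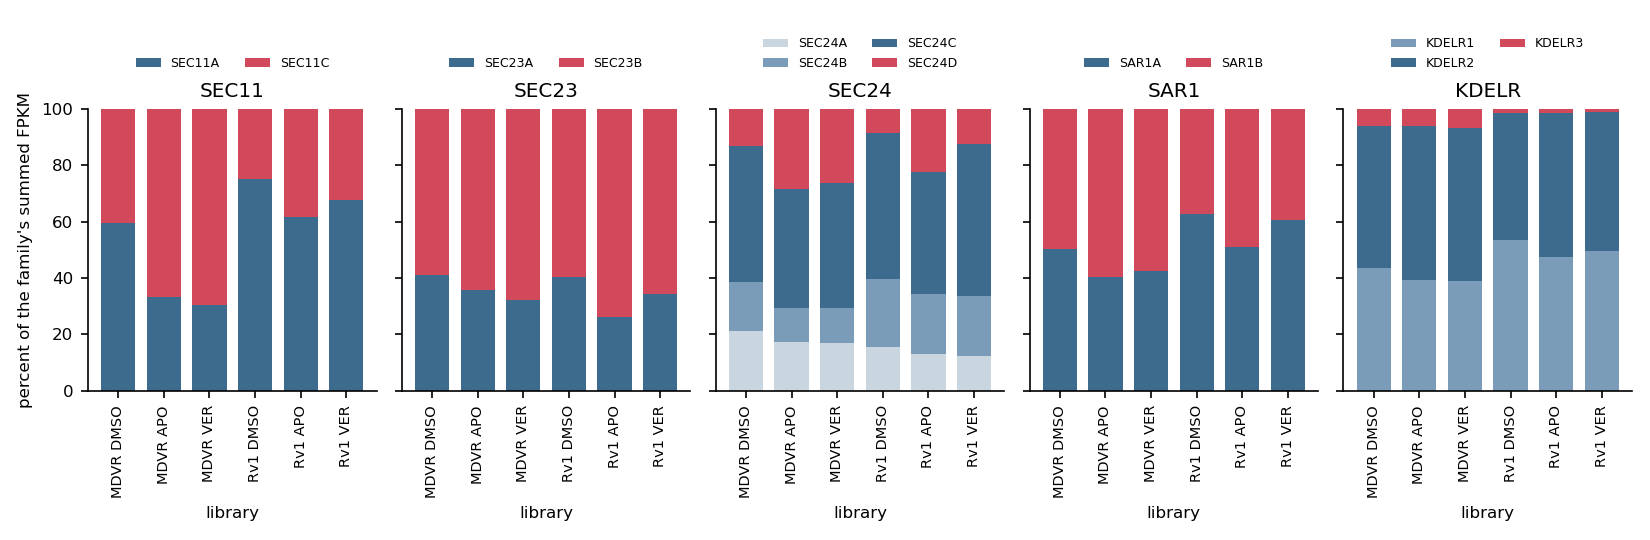
Share of each paralog in the summed FPKM of its family (percent, stacked bars from 0 to 100) in the 6 libraries, with MDVR for C4-2B MDVR and Rv1 for CWR22Rv1. The last paralog of each family is drawn in red. Of these, SEC11C, SEC23B, SEC24D and SAR1B take a larger share in each treated library than in the DMSO library of the line. KDELR3, also in red, does not do so in every treated library.

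VER and APO were given at the same dose for the same time and were compared directly within each line. In C4-2B MDVR they differed little for these genes, with 7 members higher with VER and 2 lower, against 28.5% and 32.5% of all genes. With TPM the split was 15 higher and 1 lower. Past 1.5-fold 2 were higher and 0 lower, against 15.4% and 17.7%, and past 2-fold 0 and 0, against 8.68% and 10.5%. TMED9, another p24 protein, had 164 FPKM with APO and 256 with VER, and LMAN1, a lectin that carries glycoproteins out of the ER, had 79.2 and 119 FPKM. SRP19 was lower with VER, at 36.5 against 51.2 FPKM. SEC11C and the outer COPII subunit SEC31A were higher by 0.31 and 0.29 on the log2 scale.

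In CWR22Rv1 cells the inhibitors separated the groups. Higher with VER than with APO were 20 members and lower 14, where 37.3% of all genes were higher and 34.5% lower. The split was 12 and 18 with TPM, and 22 and 10 with the totals matched outside the mitochondrial chromosome. Past 1.5-fold it was 9 and 7, against 25.6% and 20.6% of all genes, and past 2-fold 2 and 1, against 15.6% and 10.5%. All 5 signal peptidase genes and 7 of 8 cargo receptors were higher with VER, with medians of 0.76 and 0.64 on the log2 scale. All 6 COPI genes were lower, with a median of -0.54, and 6 of 11 COPII genes were lower and 2 higher, with a median of -0.30, or -0.22 with the totals matched in that way. The COPI median lay 1.30 below that of the signal peptidase and 1.19 below that of the cargo receptors. SEC11A, the other catalytic subunit of the signal peptidase, had 209.5 FPKM with APO and 463 with VER, around a DMSO level of 277 FPKM. SPCS3 was also below its DMSO level with APO and above it with VER, as were KDELR1, at 180.3 and 353 FPKM around 298, and SSR4, at 292 and 564 FPKM around 314. SEC24D differed the other way, from 17.9 FPKM with APO to 7.91 with VER, a log2 difference of -1.17. These differences move with the mitochondrial share of the libraries, 10.4% with APO and 25.7% with VER, whose part in them was not tested. The gaps between groups do not depend on the total of a library. The counts within each group can depend on it and were not recomputed under the rescalings.

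**Figure D4:**
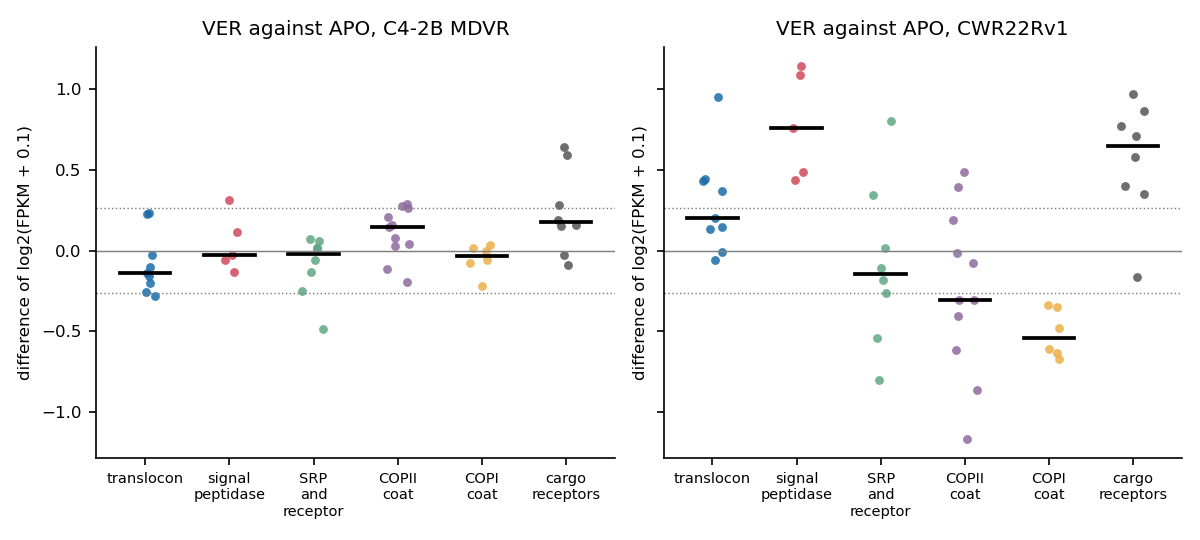
Difference of log2(FPKM + 0.1) between VER and APO for the members (points) of each group, in C4-2B MDVR (left) and CWR22Rv1 cells (right), with black bars at the medians and dotted lines at 1.2-fold. In CWR22Rv1 cells all 6 COPI genes lie below the lower line and all 5 signal peptidase genes above the upper one.

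Under DMSO the lines differed in the make-up of this machinery. Higher in C4-2B MDVR than in CWR22Rv1 cells were 24 members and lower 10, against 39.2% and 43.2% of all genes. Past 1.5-fold the counts were 17 and 8, against 29.2% and 35.0%, and past 2-fold 6 and 4, against 19.4% and 27.2%. SEC11A had 72.6 FPKM in C4-2B MDVR and 277 in CWR22Rv1, SPCS3 had 36.0 and 134 FPKM, SRPRA 36.5 and 109 FPKM and KDELR1 118 and 298 FPKM. These 4 genes were thus lower in C4-2B MDVR, with log2 differences of -1.93, -1.89, -1.57 and -1.33 in that order. SSR3, the gamma subunit of TRAP, was higher, at 260.4 against 76.8 FPKM. Of the signal peptidase genes 4 of 5 were lower and none higher in C4-2B MDVR, with a median of -0.88. In COPI 5 of 6 were higher, with a median of 0.44, and in COPII 6 of 11, with a median of 0.58. The lines also differ in the enzalutamide of their maintenance medium, which cannot be told apart from the lines themselves. Under DMSO the signal peptidase genes took 9.56% of the members' summed FPKM in C4-2B MDVR and 17.2% in CWR22Rv1, and the translocon 39.0% and 30.7%.

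**Figure D5:**
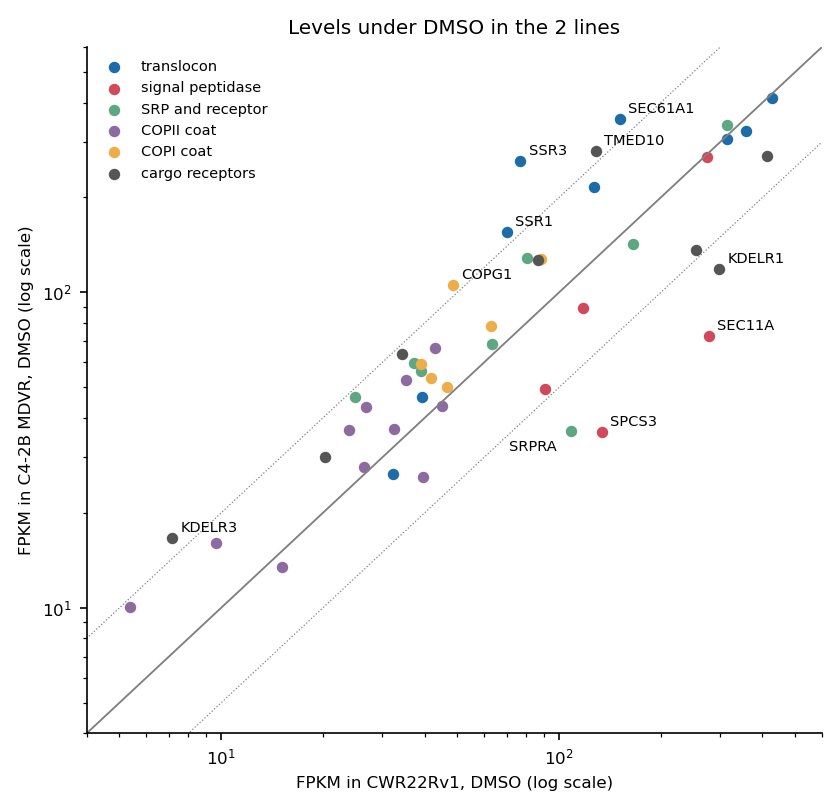
FPKM of the 47 members in C4-2B MDVR (vertical) and CWR22Rv1 cells (horizontal) under DMSO, both on log axes, coloured by group. The solid line marks equal levels and the dotted lines a 2-fold difference. The 10 named genes lie beyond it, with SSR3 farthest above and SEC11A and SPCS3 farthest below.

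Neighbouring steps of the pathway were examined through 87 other genes in 4 lists, all of which were found in the tables and of which 85 passed the filter in C4-2B MDVR and 86 in CWR22Rv1. Over the 4 lists 54 genes were higher and 7 lower with APO in C4-2B MDVR, 49 and 9 with VER, and in CWR22Rv1 33 and 16 with APO and 43 and 8 with VER. Of all genes compared, 37.7%, 35.6%, 35.6% and 32.1% were higher and 35.4%, 34.9%, 39.2% and 32.3% lower, in the same order. The 33 higher genes with APO in CWR22Rv1 cells were thus near the share over all genes. These shares also stand beside the counts of the single lists below. The medians were 0.39, 0.32, 0.14 and 0.26 on the log2 scale. With TPM the APO counts became 39 higher and 12 lower in C4-2B MDVR and 41 and 10 in CWR22Rv1, and with the totals matched outside the mitochondrial chromosome 26 were higher and 27 lower in CWR22Rv1. The oligosaccharyltransferase, which adds N-glycans to proteins as they leave the SEC61 channel, had 11 of 12 genes higher with APO and all 12 with VER in C4-2B MDVR. In CWR22Rv1 cells none was higher with APO and 9 were with VER. OSTC had 89.3, 174 and 178 FPKM in C4-2B MDVR and 149, 172 and 257 FPKM in CWR22Rv1, and MAGT1 had 63.8, 117 and 114 FPKM and 60.0, 62.6 and 116 FPKM. For both genes the APO library of CWR22Rv1 cells was within 1.2-fold of DMSO.

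Other genes of COPI transport and return from the Golgi followed another order, with 15 of 20 higher with APO in CWR22Rv1 cells and 3 with VER, and 8 and 5 in C4-2B MDVR. ARFGAP3, which stimulates the GTPase of the small protein ARF1 on COPI vesicles, had 32.1, 62.5 and 56.4 FPKM in C4-2B MDVR and 15.4, 43.7 and 21.8 FPKM in CWR22Rv1. COPZ2, a zeta subunit of COPI, had the largest mean change of this list but missed the filter in C4-2B MDVR, with 0.0961 FPKM under DMSO and a listing at 0 with both inhibitors, and had 2.80, 9.76 and 5.95 FPKM in CWR22Rv1 cells. ZW10, part of the complex that tethers returning vesicles at the ER, had 16.2, 16.0 and 9.33 FPKM and 9.28, 15.5 and 7.02 FPKM. Other genes of ER exit were higher in 20, 20, 13 and 19 of 27 cases. MIA2, which with MIA3 serves the export of bulky cargo, had 10.6 FPKM under DMSO, 82.9 under APO and 41.9 under VER in C4-2B MDVR and 23.1, 109.9 and 60.0 FPKM in CWR22Rv1. Its log2 fold changes of 2.95, 1.97, 2.24 and 1.37 exceeded those of every member, apart from SEC11C with VER in C4-2B MDVR. CIDEB, a low-abundance gene linked to lipoprotein export, had 2.18, 1.06 and 10.5 FPKM and 2.21, 0.635 and 1.201 FPKM. Of the 28 other genes of translocation and membrane insertion, 15, 12, 5 and 12 were higher and 3, 5, 8 and 3 lower. TRAM1, which lies beside the channel, had 73.3, 175 and 145 FPKM and 81.8, 95.9 and 134 FPKM, and EMC3, of the complex that inserts membrane proteins, had 37.9, 74.0 and 63.3 FPKM and 21.5, 34.0 and 32.0 FPKM. Across the 4 lists 13 of the 87 genes were higher in all 4 comparisons, against 9.59% of the 18059 genes that passed the filter in both lines.

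Promoter sequences from RefSeq on GRCh38.p14, from 250 bases before to 50 after a start site, were given for 42 of the 47 members, in 58 windows. SRPRA, TMED9, SPCS1, KDELR2 and SEC24D had no entry. Both strands were searched for 5 short motifs known from genes of ER and Golgi stress. The element UPRE was read as TGACGTGG, the Golgi stress element GASE as ACGTGGC and the amino acid response element CARE as TGATGNAAT. ERSE was read as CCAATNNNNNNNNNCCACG and ERSE-II as ATTGGNCCACG. UPRE was found in 11 of the 42 members, or 26.2%, where 1.05% of 15843 protein-coding genes with a window and 0.729% of all 35116 windows held it. GASE was found in 20 members, or 47.6%, against 4.78% of coding genes and 3.22% of all windows. The motifs share letters, and in 7 members a UPRE match overlapped a GASE match, so that 23 members, or 54.8%, held at least 1 of them, against 5.38% of coding genes. No member held ERSE or ERSE-II, which were in 0.0769% and 0.0541% of all windows, and SRPRB alone held CARE, which was in 0.991%. Windows of members had a median of 66.0% G and C, against 62.3% for coding genes, and several members have more than 1 window.

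Of the other genes of the pathway with a window, 4 of 67 held UPRE and 9 held GASE, or 5.97% and 13.4%. By group, either motif was in 5 of 9 translocon genes, 2 of 4 signal peptidase genes, 2 of 7 of SRP and its receptor, 7 of 10 of COPII, 5 of 6 of COPI and 2 of 6 cargo receptors. Members with UPRE did not have larger median changes than the others. The median log2 fold changes of the 11 members with UPRE were 0.45, 0.35, 0.21 and 0.26, and those of the 31 without it 0.50, 0.53, 0.29 and 0.33. For GASE they were 0.52, 0.48, 0.13 and 0.31 with and 0.48, 0.54, 0.36 and 0.30 without. Of the 13 members that were higher in all 4 comparisons and have a window, 7 held UPRE or GASE. A match is a run of letters and does not show that a factor binds there.

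The stretches of 30 bases around the first UPRE match of each member that has one are shown because they let the surroundings of the shared motif be compared. They run 5′ to 3′ on the strand of the gene, with the motif in capitals, which reads CCACGTCA where it lies on the other strand. Around this core the bases differ from gene to gene, and a G before CCACGTCA or a C after TGACGTGG completes GASE.
COPA (chr1:160343227-160343256, minus strand): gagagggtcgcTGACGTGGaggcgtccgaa
COPB2 (chr3:139389825-139389854, minus strand): gctcagcggcaCCACGTCAcggcccttagt
SSR3 (chr3:156554148-156554177, minus strand): tctgataacagCCACGTCAgcaaggaaact
SEC62 (chr3:169966779-169966808, plus strand): ccctcctcgctCCACGTCAgagggaaccgg
SRP19 (chr5:112861164-112861193, plus strand): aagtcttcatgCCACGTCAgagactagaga
SEC24A (chr5:134648595-134648624, plus strand): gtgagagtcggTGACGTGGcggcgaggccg
SEC16A (chr9:136484707-136484736, minus strand): tggccctggtgCCACGTCAgccggactgaa
COPB1 (chr11:14499841-14499870, minus strand): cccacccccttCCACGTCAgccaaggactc
SEC23A (chr14:39103221-39103250, minus strand): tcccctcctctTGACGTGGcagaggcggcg
KDELR3 (chr22:38468039-38468068, plus strand): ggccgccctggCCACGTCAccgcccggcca
SSR4 (chrX:153794528-153794557, plus strand): tcagggaggggCCACGTCAgtgctgccaga

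The next set shows GASE in capitals (GCCACGT on the other strand) in the members that were higher in all 4 comparisons and have no UPRE match. SEC11C, with the largest change of the list, is among them, and its match begins 41 bases before the start site.
COPG1 (chr3:129249587-129249616, plus strand): agcgctgggcgACGTGGCcagtcggggccc
SRPRB (chr3:133805796-133805825, plus strand): cagagtgcaggGCCACGTcgcttttgctgt
SEC63 (chr6:107958263-107958292, minus strand): ccgttgcgctcGCCACGTctcccttagcga
SEC11C (chr18:59139832-59139861, plus strand): agtcgccggtcACGTGGCcgcaaggacgct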

How the data were processed

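RNA of 6 libraries, 1 for each of 2 cell lines with DMSO, APO or VER, was sequenced. Per the labels the authors made stranded libraries from polyadenylated RNA and processed the reads with HISAT, Cufflinks and Cuffnorm on GRCh38, whereas the paper's methods name another kit and also StringTie. Tool versions and the use of strand in counting are not given in the sources used here. The authors deposited 1 FPKM value per gene and library. The paper's methods state only 1 approximate read number for all samples, and the exact total of each library is not given in the sources used here, so no count test, interval or detection floor is given, and relative depth was read from FPKM values between 0.001 and 0.05.

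Symbols and positions come from GENCODE 29, which holds 57047 of the 60658 identifiers. Fold changes are differences of log2(FPKM + 0.1). They understate the changes of genes near 0.1 FPKM. Members and lists were chosen with earlier results of these data known. The genes printed are, in each group, the 2 members with the largest and the 1 with the smallest mean absolute log2 fold change over the 4 comparisons with DMSO, the 5 that differed most between VER and APO in each line, the 5 that differed most between the lines, the paralog families and the 2 genes with the largest mean change of each other list. Since 1 of these, COPZ2, missed the filter in C4-2B MDVR, the next gene, ZW10, was added. Other members were named after their values were seen. Functions were tested on simulated data. The work used pandas 2.3.3 with numpy 2.4.6 in Python 3.11.15, scipy 1.17.1 for correlations and matplotlib 3.10.9 for figures. Alternatives were pseudocounts of 0.01 and 1, 3 other filters, 3 rescalings, thresholds of 1.5-fold and 2-fold and, added after seeing the data, subtraction of the median in 20 bins of GC content.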

Additional observations from a re-analysis of the deposited data

Results flagged for a closer look

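Members that moved past 1.2-fold in opposite directions in the 2 lines with the same inhibitor are listed here. With 1 library per condition the difference between the lines was not tested. With APO there were 6, each higher in C4-2B MDVR and lower in CWR22Rv1. On the log2 scale the changes were 0.37 and -0.66 for SPCS3, 0.81 and -0.38 for SRPRA, 0.38 and -0.72 for KDELR1, 0.67 and -0.39 for KDELR2, 0.52 and -0.27 for KDELR3 and 0.31 and -0.43 for LMAN1, in that order of lines. The 3 KDEL receptors and LMAN1 are all cargo receptors. Members made up a share of 12.8% here, close to the 13.2% of the 18059 genes that passed the filter in both lines. With VER there was 1 member, SRP19, at -0.35 in C4-2B MDVR and 0.81 in CWR22Rv1, or 2.13% of the list against 11.5% of all genes.

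After each of the 3 rescalings all 7 members kept opposite signs in the lines. SRPRA, KDELR2 and SRP19 also stayed past 1.2-fold in both lines, while the other 4 fell within it in 1 line under at least 1 rescaling. The mitochondrial share of the CWR22Rv1 APO library, 10.4% against 25.7% with DMSO, moves with the APO differences, and its part in them was not tested.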

How the results depend on the processing

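No paired analysis was possible because each condition has 1 library, and for the same reason no library could be left out. A median was taken to move when it crossed 1.2-fold (0.263 on the log2 scale, so that some values printed as 0.26 lie below it), and a count when it changed by more than 1.5 times. No median past 1.2-fold turned its direction under any alternative tried. Pseudocounts of 0.01 and 1 and the 3 other filters moved none of the counts or medians. Of the results given for single genes, each counted once per alternative, 8 fell within 1.2-fold, 3 passed it and 757 did neither. Over genes above 1 FPKM, whose median was at or near 0, TPM gave medians of -0.08 for APO in C4-2B MDVR, 0.08 for APO and -0.07 for VER in CWR22Rv1 and -0.18 between VER and APO there. With the totals matched outside the mitochondrial chromosome it was -0.14 with APO in CWR22Rv1 cells, against which changes under a rescaling are read.

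With TPM, the SRP median with APO in C4-2B MDVR was 0.15 and 12 of the other pathway genes were lower. With APO in CWR22Rv1 cells the median of all members was 0.32, that of COPII 0.27, and 10 other genes were lower. With VER in CWR22Rv1 cells 2 members were lower. Between VER and APO, 15 members were higher and 1 lower in C4-2B MDVR, with medians of 0.30 for COPII and 0.32 for cargo receptors, and in CWR22Rv1 cells 12 members were higher and the SRP median was -0.33. Between the lines the translocon median was 0.31.

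With the totals matched outside the mitochondrial chromosome, 4 members and 12 other genes were lower with APO in C4-2B MDVR, and the medians of signal peptidase and SRP were 0.26 and 0.14. With APO in CWR22Rv1 cells the medians of translocon, SRP and cargo receptors were 0.15, 0.12 and -0.30, and 27 other genes were lower. With VER in CWR22Rv1 cells 2 members were lower. Between VER and APO in C4-2B MDVR 16 members were higher and 1 lower, with medians of 0.32 for COPII and 0.35 for cargo receptors. In CWR22Rv1 cells the translocon median was 0.29 and that of COPII -0.22. Between the lines the medians of all members and of SRP were 0.20 and 0.19. With a median ratio of 1, the SRP median with APO in CWR22Rv1 cells was 0.26, 1 member was lower with VER than with APO in C4-2B MDVR, the COPII median of that comparison in CWR22Rv1 cells was -0.26, and between the lines the medians of all members and of SRP were 0.21 and 0.20. With GC content subtracted, an alternative chosen after seeing the data, the SRP median was 0.26 with APO in C4-2B MDVR and 0.20 with APO in CWR22Rv1 cells, and 2 members were lower with VER in CWR22Rv1 cells.

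At a threshold of 1.5-fold, the members higher and lower numbered 20 and 0 with APO and 21 and 0 with VER in C4-2B MDVR, 10 and 2 with APO and 12 higher with VER in CWR22Rv1 cells, 2 and 0 between VER and APO in C4-2B MDVR and 9 and 7 in CWR22Rv1. The other genes numbered 28 and 2, 20 and 4, 21 and 6, and 12 and 2 in the 4 comparisons with DMSO. The shares over all genes at 1.5-fold and 2-fold are those given above for the members. At 2-fold the members numbered 5 and 0, 4 and 0, 4 and 0, and 1 higher, between VER and APO 0 and 0 in C4-2B MDVR and 2 and 1 in CWR22Rv1, and between the lines 6 and 4. The other genes numbered 4 and 0, 4 and 0, 5 and 3, and 2 and 0. These shifts follow from the threshold itself. The cause of the others was not tested. Depth limits low values most, and no member is below 5 FPKM.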

Other observations

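Across genes, the fold changes of the 2 lines with APO, which share no library, had a Spearman correlation of 0.38 over the 47 members and 0.44 over the 18059 genes that passed the filter in both lines. With VER the values were 0.53 and 0.39. Genes are not independent replicates, and the values are given as a description.

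Fold changes went with base composition in CWR22Rv1 cells. Over 8602 coding genes above 5 FPKM in all 3 libraries, the Spearman correlation of the log2 fold change with the GC content of the longest transcript was -0.28 for APO and -0.20 for VER. In C4-2B MDVR, over 8489 genes, it was -0.11 and 0.0045. Over the 47 members it was -0.00023 and 0.063 in CWR22Rv1 and 0.13 and 0.29 in C4-2B MDVR. After the median of each of 20 bins of GC content was subtracted, 23 members were higher and 8 lower with APO in CWR22Rv1 cells, and 28 and 2 with VER.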
